A study of Rattus norvegicus with 6 samples.

Results

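The control condition of this RNA-seq series was examined alone, to describe what cultured hippocampal neurons express when they carry EGFP only. It is made up of the 2 libraries labelled EGFP (replicates 1 and 2), out of 6 libraries in 3 groups, and its members were chosen by these labels and by no measured value. The cells were primary neurons from the hippocampus of Sprague-Dawley rat embryos at embryonic day 18, grown in Neurobasal medium with B27. They were infected at day 5 or 6 in vitro with a lentivirus expressing EGFP and lysed at day 14, and messenger RNA was selected with poly-T beads. The other groups of the series, CCNY-WT and CCNY-shRNA, carry EGFP constructs that overexpress or knock down Cyclin Y, and they were not compared here. The lentivirus was made from the vector FUGW, whose ubiquitin C promoter is active in neurons and glia alike, so EGFP does not mark neurons. The labels do not say whether the 2 libraries came from separate cultures, so the spread between them may be technical.

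Dissociated hippocampal neurons extend an axon and dendrites within days of plating and go on to form synapses with each other. Most of them are glutamatergic pyramidal neurons, and a smaller number are GABAergic interneurons that release GABA and often a neuropeptide. Astrocytes and other cells of the tissue are carried into such cultures, and B27 medium was designed to favour neurons over them.

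The deposited table gives 1 FPKM value (the number of fragments counted on a gene, divided by its length in kilobases and by the size of the library) per gene and library for 17066 gene symbols, without coordinates. Because FPKM is scaled to transcript length, levels of different genes are set side by side on this scale throughout. The values summed to 544167 in replicate 1 and 543901 in replicate 2, with medians over all genes of 3.70 and 3.73. An FPKM of at least 1 was found in both libraries for 9808 genes (57.5%), of at least 10 for 6406 (37.5%) and of at least 100 for 1107 (6.49%). Only 38 genes reached 1000 in both. A further 4269 genes (25.01%) were listed at 0 in both libraries. Genes that every cell uses, such as the ribosomal protein gene Rpl36 and the glycolytic enzyme gene Pgam1, were among those at 0, so a listed 0 does not show that a gene was silent. Read counts are not in the table and the depth of each library is unknown. The library size used as divisor was estimated from the steps between the FPKM values of 669 weakly expressed genes. It was 1.09 times as large in replicate 2 as in replicate 1. This is a ratio of sequenced fragments only if no scaling between libraries was applied, which is not stated.

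The most abundant transcripts were those of energy metabolism, protein synthesis and the cytoskeleton, together with a small number of genes typical of neurons. Uqcr10, which codes a small subunit of respiratory complex III, had the highest level, with an FPKM of 4228 in replicate 1 and 4236 in replicate 2. Nnat, an imprinted gene for a small membrane protein abundant in developing brain, followed with 4224 and 4108. The ranges of Uqcr10 and Nnat over the libraries did not overlap, but their means, 4232 ± 5.45 and 4166 ± 81.5 FPKM (SD, n = 2), differed by less than the SD of Nnat. Ppia (cyclophilin A) had 3235 and 3072, Gapdh of glycolysis 2985 and 3000, and the elongation factor gene Eef1a1 2819 and 2836. Below these came the actins Actg1 (2517 and 2482) and Actb (2105 and 2051), the ribosomal protein genes Rplp1 (2086 and 2111) and Rpl41 (1893 and 1918), and the tubulin gene Tuba1a (1985 and 1974). Actg1 and Actb, the tubulins and the calmodulin genes such as Calm2 and Calm3 are closely related in sequence, so how their reads were divided is uncertain.

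Genes with a neuronal role were present among the 30 highest. Syp codes synaptophysin, a main protein of the synaptic vesicle membrane, and had 1608 and 1675 FPKM. Uchl1, a deubiquitinating enzyme abundant in neurons, had 1238 and 1207, and App, the amyloid precursor protein gene, had 1238 and 1324. Sst, the gene of the interneuron peptide somatostatin, ranked 24 of all genes with 1256 and 1311. The imprinted non-coding RNA gene Meg3, listed under its older symbol RGD1566401, had 1450 and 1765, the widest gap between libraries among the 30. In this order, 17 of the 29 pairs of neighbouring genes had overlapping ranges over the 2 libraries, so only part of the ranking is resolved by these data.

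**Figure D1:**
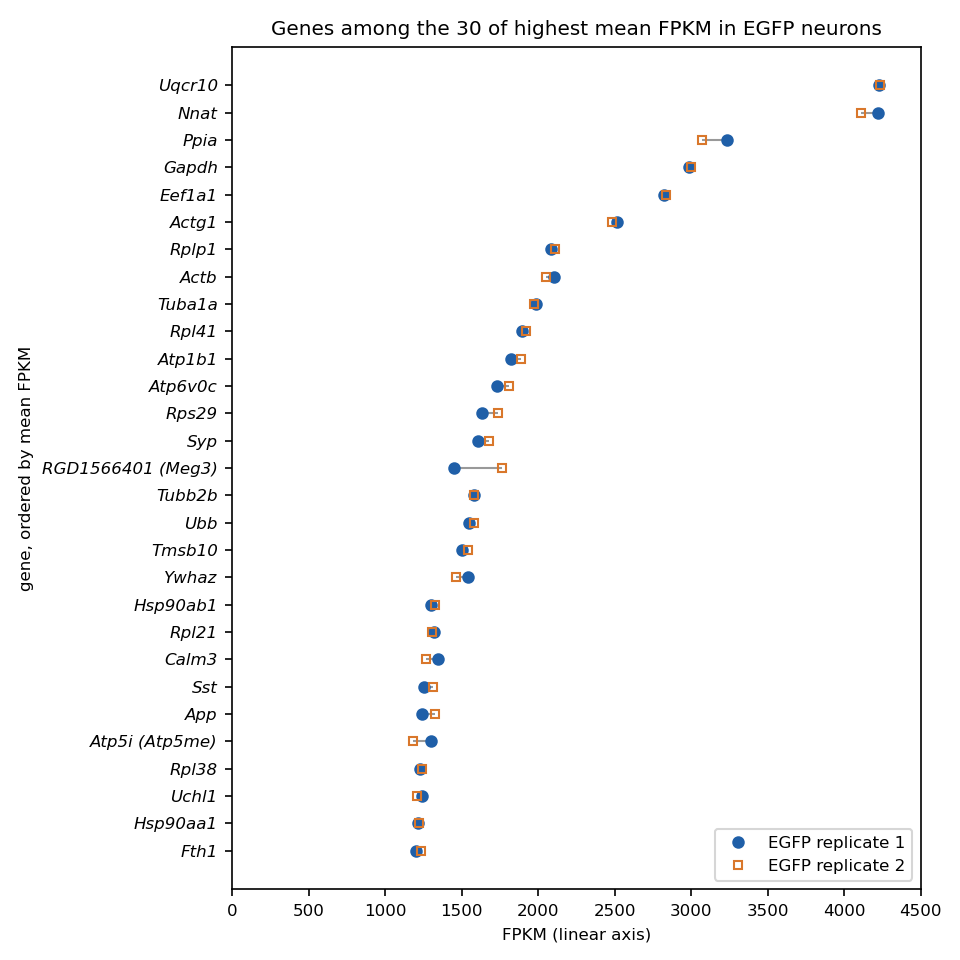
FPKM (linear horizontal axis) of genes among the 30 with the highest mean in the EGFP neurons, ordered by mean on the vertical axis; filled circles are replicate 1, open squares replicate 2, and a line joins the 2 libraries. Uqcr10 and Nnat lie at 4108 or above in both libraries, and Meg3 has the widest gap, from 1450 to 1765.

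The FPKM sum was spread over many genes rather than held by a few. The highest gene held 0.778% of it, the 10 highest 5.13% ± 0.0357 (SD, n = 2), the 100 highest 21.5% ± 0.0980 and the 1000 highest 60.8% ± 0.165. The 583 highest genes made up 50% of it and the 4209 highest 90%. Ribosomal protein genes, 80 in the table, held 7.57% in replicate 1 and 7.56% in replicate 2, with 75 of them at 100 or more in both libraries and a median of 436 FPKM. Rpl36 was listed at 0 in both libraries, and Rpl37a had 24.5 in replicate 1 and 0.00734 in replicate 2, against 443 for the median ribosomal protein gene of replicate 1. The 46 genes of the ATP synthase and respiratory chain list, all at 1 or more, held 3.18%, led by Cox6c (1142 and 1132), Atp5f1b (1109 and 1095) and Cox6a1 (999 and 1054). The 21 cytoskeletal genes, all at 10 or more, held 3.10%.

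Other groups of genes that every cell needs were also high. Of 16 genes of glycolysis, 14 had at least 1 FPKM in both libraries and 13 had at least 100, with a median of 378, and the list held 1.69% of the sum. After Gapdh, its highest members were Aldoa (940 and 949), Ldha (889 and 902) and Eno1 (868 and 871). Eno2, the enolase of neurons, had 567 and 601. The glucose kinase gene Hk2 had only 0.922 and 2.001, and Pgam1 was listed at 0 in both libraries. Hk1, another glucose kinase gene of the list, was not analysed here, so the level of this step is not known. Translation factors (16 of 16 at 10 or more, median 324) included Tpt1 (771 and 754) and Eef2 (719 and 740). Chaperones spanned a wide range. After Ppia, the highest were Hsp90ab1 (1301 and 1323) and Hsp90aa1 (1216 and 1223), the endoplasmic reticulum chaperone Hspa5 had 380 and 423, and the lowest were the heat shock genes Hspa1b (1.92 and 1.71) and Hspb1 (1.68 and 1.98). All 17 genes of ubiquitin and the proteasome had at least 10, with a median of 143.

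Among the cell type markers, the pan-neuronal list had a higher median than the astrocyte list, and most microglia genes were near 0. These are levels of different genes in a mixed culture and do not give numbers of cells. All 20 pan-neuronal genes had at least 10 FPKM in both libraries, 14 had at least 100, and their median was 375, against a median of 3.70 and 3.73 over all genes in the respective libraries. Map2, the dendritic microtubule-associated protein gene, had 246 and 242 FPKM. Tubb3, a neuron-specific tubulin, had 608 and 601, Snap25 of the release machinery 505 and 495, and Rbfox3, which codes the nuclear protein NeuN, 48.1 and 46.4. Gap43 (1013 and 952) and Stmn2 (941 and 977), both known from growing axons, were the highest of the list after Uchl1. The neurofilament genes differed in level, with 753 and 739 for Nefl, 632 and 642 for Nefm, and 15.1 and 14.0 for Nefh, the heavy chain of mature axons. Dcx, a gene of migrating and young neurons, still had 53.9 and 51.4, and the postsynaptic gene Nrgn had 20.4 and 22.6.

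The vesicular glutamate transporter genes together were higher than the genes of GABA synthesis. The medians of the excitatory and GABAergic marker lists were close, at 31.7 and 33.4 FPKM. The GABAergic list had the larger sum (2985 against 1723), but Sst alone gave a mean of 1283 of it, so the order of the sums rests on this gene. The GABAergic list also counts Calb1, which is in the hippocampal field list as well. Slc17a7, which codes the vesicular glutamate transporter of cortical and hippocampal neurons (VGLUT1), had 894 and 936 FPKM, the highest of all solute carrier genes. Slc17a6 (VGLUT2) had 27.3 and 28.5, so that Slc17a7 was 32.8-fold higher. Gad1 and Gad2, the enzymes that make GABA, had 189 and 188 and 170 and 173. The summed level of Slc17a7 and Slc17a6 was 2.56-fold that of Gad1 and Gad2 in replicate 1 and 2.67-fold in replicate 2, a mean ratio of 2.61 ± 0.0738 (SD, n = 2). For Slc17a7 over Gad1 alone the ratio was 4.85. This is a ratio of transcripts in a mixed culture, in which fewer cells of a type and less RNA per cell cannot be told apart. The vesicular GABA transporter gene Slc32a1 had 125 and 136. Of the 9 genes in the excitatory list, 8 had at least 1 in both libraries, and Neurod6 of pyramidal neurons had 171 and 158.

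Genes used as markers of interneuron classes differed widely in level. Sst had 1256 and 1311 FPKM and Npy, the neuropeptide Y gene often found in the same cells, had 403 and 451, so Sst was 3.01-fold higher than Npy on average. Cck had 278 and 301 and Calb1 136 and 128. The calretinin gene Calb2 (33.4 and 32.0), Reln (33.0 and 35.2) and Vip (30.6 and 25.4) formed a lower group whose ranges overlapped between Calb2 and Reln. Pvalb, the parvalbumin gene of fast-spiking cells, had 1.46 in replicate 1 and was listed at 0 in replicate 2. The transcription factors of interneurons from the medial ganglionic eminence and of the forebrain GABAergic lineage were low by comparison, with 11.1 and 13.1 for Lhx6, 14.5 and 16.0 for Dlx1 and 4.15 and 4.56 for Dlx2.

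Genes that mark hippocampal fields were all measured at 1 or more in both libraries (15 of 15), with a median of 32.6 FPKM. Pcp4, a calmodulin-binding protein gene known from field CA2 and the dentate gyrus, was the highest at 876 and 826. Wfs1 and Fibcd1, used as markers of CA1, had 32.7 and 33.1 and 11.4 and 12.5. Grik4, a marker of CA3, had 33.4 and 31.8, close to Wfs1, with overlapping ranges. Prox1, the transcription factor of dentate granule cells, had 8.82 and 8.08, and the CA2 marker Rgs14 had 5.70 and 7.24. Markers of several fields of the labelled tissue were thus found together, and bulk RNA does not tell which cells held them.

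Among other cell types, astrocyte genes were the best represented. Of 13 astrocyte genes, 11 had at least 1 FPKM in both libraries and the median was 53.5. Gfap, the intermediate filament of astrocytes, had 120 and 126, Map2 being 2.05-fold and 1.92-fold higher in the same libraries. Aldoc had 162 and 188, the glutamate transporter genes Slc1a2 and Slc1a3 had 83.7 and 82.9 and 80.8 and 84.0, and the water channel gene Aqp4 had 16.8 and 17.0. Gjb6, a gap junction gene of mature astrocytes, was listed at 0 in both libraries. The median pan-neuronal gene was 6.76-fold and 7.27-fold higher than the median astrocyte gene, and the ratio of the geometric means, with values floored to 1, was 12.1. Fabp7, a fatty acid binding protein gene of radial glia and astrocytes, had 441 and 464, far above the other progenitor genes, such as Nes (9.90 and 9.89), Sox2 (10.7 and 9.19) and Pax6 (0.683 and 0.391).

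Oligodendrocyte genes were at low levels and uneven. Of 16, 7 had at least 1 FPKM in both libraries and 3 had at least 10, namely Olig1 (12.2 and 13.6), Mbp (13.6 and 11.0) and Cnp (11.4 and 10.8). Mog had 7.98 and 7.64, whereas Pdgfra, the receptor gene of oligodendrocyte precursors, had 0.422 and 0.266 and Sox10 was listed at 0 in both libraries. Of 16 genes of microglia and macrophages, 10 were listed at 0 in both libraries, the defining genes Aif1, Cx3cr1 and Itgam among them. In all, 15 of the 16 were below 1 in both libraries, with the lysosomal gene Cd68 at 0.498 and 0.456.

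Vascular and meningeal genes were mostly low, with Lum and Dcn the highest. Of 14 genes, 10 were below 1 FPKM in both libraries, with Pecam1 at 0.206 and 0.189 and Cldn5 and Cdh5, which define endothelial cells, listed at 0. The small proteoglycan genes Lum and Dcn of connective tissue had 50.1 and 56.0 and 13.2 and 15.0. Mgp (4.07 and 5.11) and Fn1 (2.58 and 3.25) also had at least 1 in both libraries. Col1a1 and Col1a2, the collagen genes of fibroblasts, had only 0.118 and 0.271 and 0.195 and 0.501. Lum was 423-fold higher than Col1a1 in replicate 1 and 206-fold higher in replicate 2, a ratio that rests on very low Col1a1 values.

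Genes of cell division were low. Of 15, 6 had at least 1 FPKM in both libraries, and Mki67 and Top2a, which mark cycling cells, had 1.02 and 0.979 and 0.395 and 0.428. Pcna, which also serves DNA repair, was the highest with 32.4 and 28.3. None of 13 genes typical of other tissues reached 1 in either library, and 10 of them, including albumin (Alb), insulin (Ins1, Ins2) and beta-globin (Hbb), were listed at 0 in both. Of 13 interferon-stimulated genes 10 were below 1 in both libraries, with Isg15 at 0.715 and 0.653, while Mx1 stood at 18.2 and 18.5 and Irf1 at 3.26 and 2.90.

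**Figure D2:**
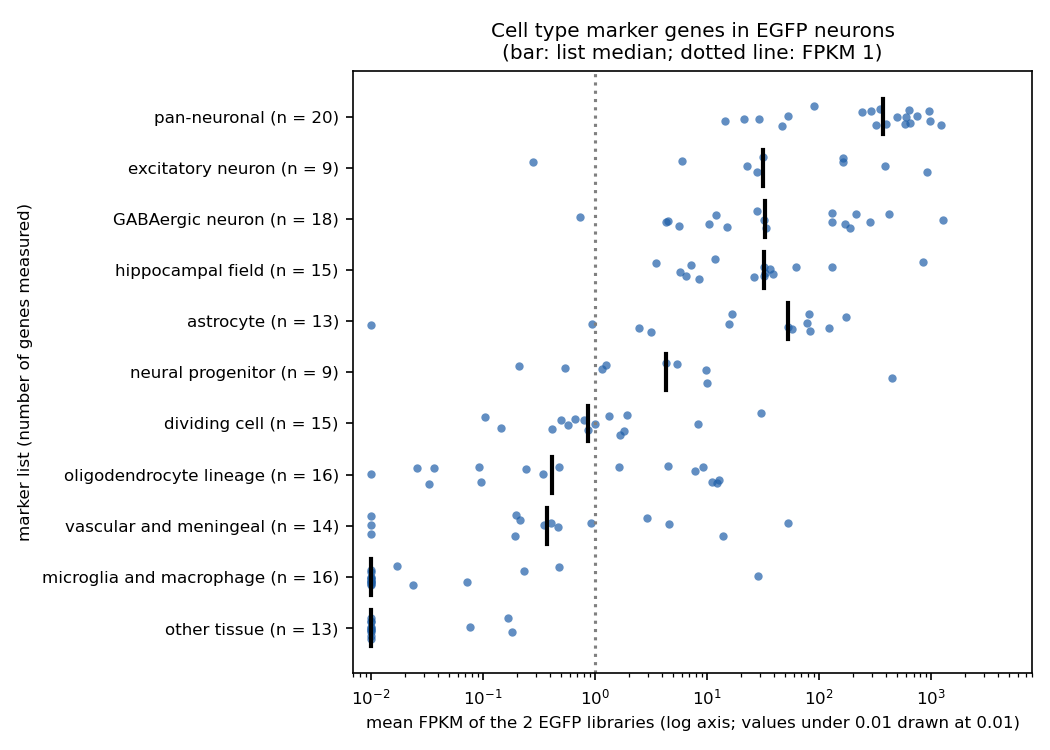
Mean FPKM of the 2 EGFP libraries (log horizontal axis, values under 0.01 drawn at 0.01) for each measured gene of 11 marker lists on the vertical axis; each point is a gene, the black bar is the list median and the dotted line an FPKM of 1. Pan-neuronal genes lie around a median of 375, astrocyte genes around 53.5, and the microglia and other tissue lists have a median of 0.

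Receptor subunits were next described family by family, as the share of each gene in the summed FPKM of its family, since the subunits present shape the properties of the receptors a neuron can build. Glutamate acts on AMPA, NMDA and kainate receptors, which are ion channels made of several subunits, and on metabotropic receptors, which signal through G proteins. Of the AMPA receptor subunits, Gria2, which makes the channel impermeable to calcium when its RNA is edited, had 255 and 272 FPKM. Gria4 had 52.2 and 57.2 and Gria3 had 25.9 and 28.6, so that Gria2 held 76.3% of the sum of these 3 genes. Gria1 was not analysed here, so the shares are not those of the whole family. The auxiliary proteins that accompany AMPA receptors were all measured at 1 or more (10 of 10), led by the cornichon gene Cnih2 (266 and 269). Cacng7 (103 and 122) and Cacng8 (112 and 110) overlapped, and Cacng2, which codes stargazin, had 51.3 and 47.1.

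NMDA receptors combine the obligatory GluN1 subunit with GluN2 or GluN3 subunits. Grin1, the gene of GluN1, had 203 and 205 FPKM and held 78.1% of the family. Grin2b, the form that prevails early in development, had 23.5 and 22.2, and Grin2a, the form that gains ground with maturation, had 21.5 and 21.0. The ranges of Grin2b and Grin2a did not overlap, but their ratio was only 1.08 ± 0.0285 (SD, n = 2). Grin2d (6.45 and 6.55), Grin3a (4.14 and 4.94) and Grin3b (1.68 and 2.13) were lower, and Grin2c, the form of cerebellar granule cells, had 0.199 and 0.0729. Grin1 exceeded Grin2b 8.60-fold and 9.22-fold.

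Kainate receptor genes were headed by Grik5, with 105 and 114 FPKM and 49.6% of the family, a subunit that needs Grik1, Grik2 or Grik3 partners to form channels. Grik2 followed with 45.7 and 46.6, then Grik4 (33.4 and 31.8), Grik3 (23.5 and 21.3) and Grik1 (9.31 and 10.2), with no overlap between neighbours. The auxiliary subunit genes Neto1 and Neto2 had 78.9 and 76.6 and 24.1 and 26.0. The delta receptor gene Grid1 had 28.3 and 26.6. Among metabotropic receptors, Grm5 (69.6 and 71.0), coupled to calcium release, and Grm7 (67.7 and 72.8), a presynaptic inhibitory receptor, each held 42.5% and could not be ordered. Grm4 had 7.80 and 7.94, and Grm3 (2.46 and 2.83), Grm8 (1.28 and 1.71), Grm2 (0.875 and 0.837) and Grm6 (0.803 and 0.883) were near 1.

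GABA-A receptors are pentamers, mostly of alpha, beta and gamma subunits. Gabra2, with 302 and 303 FPKM, held 46.1% of the alpha subunit sum, and Gabra5, known from extrasynaptic receptors of hippocampal pyramidal neurons, held 38.0% with 236 and 263. Gabra4 had 44.0 and 45.4, Gabra3 had 16.8 and 18.6, and Gabra6 of cerebellar granule cells had 0.143 and was listed at 0. Of the beta subunits, Gabrb1 (79.0 and 75.4) exceeded Gabrb2 (32.3 and 28.1). Gabrg1 had 16.8 and 16.1, Gabrd, a subunit of extrasynaptic receptors, 7.24 and 8.07, and Gabrg3 5.32 and 6.46. Of the 6 remaining GABA-A genes, only Gabrq (1.95 and 1.78) reached 1, and Gabrr2 (0.641 and 0.489), Gabre (0.420 and 0.330), Gabrr3 (0.1002 and 0.367), Gabrr1 (0.125 and 0.153) and Gabrp (listed at 0) did not.

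The other inhibitory receptors and the proteins that hold them were also found. The metabotropic GABA-B receptor is an obligate dimer, and Gabbr1 had 411 and 435 FPKM and Gabbr2 97.3 and 102, a ratio of 4.25 ± 0.0377 (SD, n = 2). Of the glycine receptor genes, Glrb (89.4 and 91.7) and Glra2 (41.9 and 44.4), the alpha form of developing neurons, made up nearly all of the sum, with Glra1 at 0.692 and 0.317 and Glra3 listed at 0 in replicate 1 and at 1.66 in replicate 2. Slc12a5, the chloride extruder KCC2 that makes GABA inhibitory as neurons mature, had 82.2 and 88.2, against 15.0 and 16.3 for the chloride importer gene Slc12a2 (NKCC1), a ratio of 5.44 ± 0.0267. Gphn, the scaffold gephyrin of inhibitory synapses, had 55.6 and 56.7, and the adhesion protein gene Nlgn2 had 128 and 139.

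**Figure D3:**
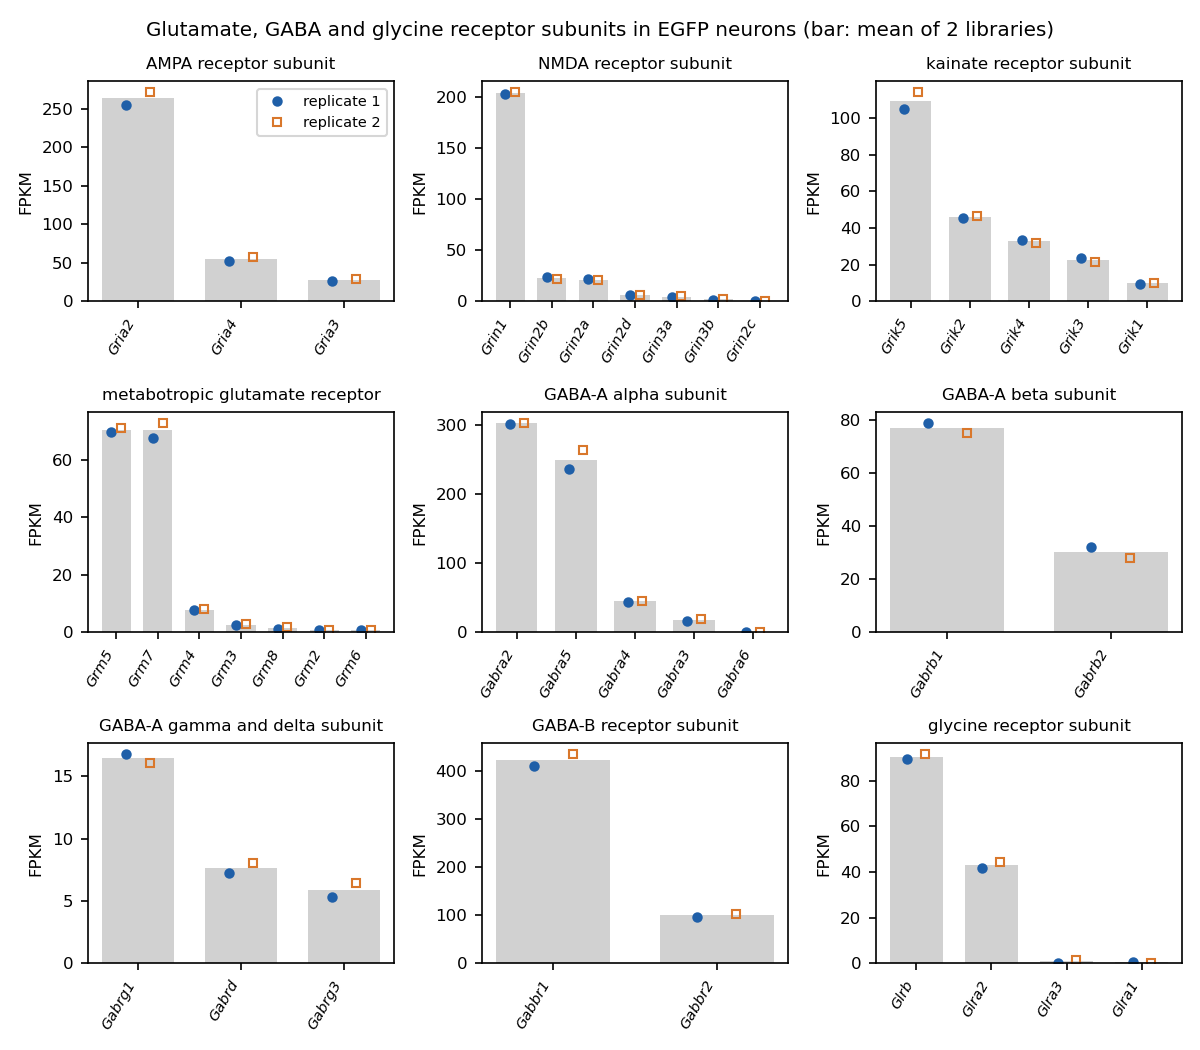
FPKM (linear vertical axes, each panel with its own range) of the glutamate, GABA and glycine receptor genes reported here, in 9 families, ordered by mean; grey bars are the mean of the 2 EGFP libraries, filled circles replicate 1 and open squares replicate 2. Grin1 holds over 75% of the sum of its family, as do Gabbr1, 1 of 2 GABA-B genes, and Gria2 among 3 AMPA genes without Gria1. Grm5 and Grm7 are level.

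Receptors of the modulatory transmitters were mostly lower than those of glutamate and GABA. Of 16 nicotinic acetylcholine receptor genes, 6 had at least 1 FPKM in both libraries. Chrna7, which forms homomeric calcium-permeable channels, had 67.8 and 59.8 and Chrnb2 57.8 and 64.6, with overlapping ranges and shares of 43.6% and 41.9%. Chrna4, the usual partner of Chrnb2, had 11.0 and 11.9 and Chrna5 4.09 and 4.24. Chrna2 (2.60 and 1.58) and Chrna1 (2.52 and 1.20), the latter the muscle subunit, overlapped, and Chrna3, Chrnb1, Chrnb4, Chrna9, Chrne and Chrng lay below 1. Chrna6, Chrna10, Chrnb3 and Chrnd were listed at 0 in both libraries. Among muscarinic receptors Chrm1, the main form of the forebrain, held 60.2% with 56.6 and 58.7, followed by Chrm3 (22.2 and 23.3), Chrm4 (13.0 and 11.5), Chrm5 (1.93 and 1.70) and Chrm2 (1.16 and 1.47).

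No serotonin receptor gene dominated its family, and Htr1a (12.4 and 12.2 FPKM), an inhibitory receptor of hippocampal neurons, held the highest share with 23.7%. Htr2a (8.76 and 8.36), Htr7 (7.33 and 7.18), Htr4 (6.86 and 7.48), Htr2c (6.83 and 6.59) and Htr3a (5.45 and 5.84), the only ion channel of these, followed, and Htr7 and Htr4 overlapped. Htr5a had 2.95 and 1.92, Htr1b 0.691 and 1.27, Htr5b 0.660 and 0.302 and Htr1f 0.139 and 0.761, and Htr1d, Htr2b, Htr3b and Htr6 were listed at 0. Of the 8 adrenergic receptor genes measured, which lack Adra2a, Adra2c (10.5 and 9.72) and Adrb1 (4.71 and 7.10) were the highest. Adra1b (2.95 and 2.50), Adra1d (1.76 and 1.89) and Adra1a (2.30 and 1.12) followed, the last pair with overlapping ranges, and Adrb3 and Adra2b were below 0.1. Dopamine receptor genes were at or near 1 or below, with 1.497 and 1.23 for Drd1, 0.784 and 0.240 for Drd2, 0.273 and 0 for Drd4, 0 and 0.248 for Drd5, and 0 in both libraries for Drd3.

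Voltage-gated channels carry the action potential and couple it to calcium entry. Scn2a, a sodium channel of unmyelinated axons and initial segments, had 92.6 and 99.7 FPKM and held 56.8% of the alpha subunit sum. Scn8a, which gains importance with maturation, had 39.9 and 40.7, Scn3a, a mainly embryonic form, 19.1 and 19.9, and Scn1a, best known from fast-spiking interneurons, 11.1 and 11.9. Scn2a was thus 2.38-fold higher than Scn8a and 8.38-fold higher than Scn1a on average. The peripheral and muscle forms Scn9a (0.897 and 1.21), Scn4a (0.592 and 0.859), Scn11a (0.0293 and 0) and Scn10a (0 and 0) were near or below 1. The auxiliary genes Scn2b (164 and 153) and Scn3b (119 and 121) were high, and Scn4b had 0.368 and 0.262.

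Among the calcium channel genes measured, which lack Cacna1s, none dominated the family. Cacna1b, the N-type channel of presynaptic terminals, had 43.9 and 43.2 FPKM and 21.2% of the sum, and Cacna1a, the P/Q-type channel, had 34.3 and 37.8, next to the T-type gene Cacna1h (32.9 and 34.2). Cacna1i (23.8 and 24.7), Cacna1c (21.9 and 23.1), Cacna1e (18.8 and 18.5), Cacna1g (17.0 and 17.7) and Cacna1d (10.1 and 9.66) followed, no neighbours in this order overlapped, and Cacna1f of the retina had 0 and 0.0265. Of the HCN pacemaker channels, Hcn2 (60.6 and 62.4) was the highest with 44.1%, followed by Hcn3 (32.2 and 38.0) and Hcn4 (7.16 and 7.14). Of 77 potassium channel genes found by their symbol, 52 had at least 1 in both libraries, with Kcnj4 (85.2 and 93.2) and Kcna1 (86.3 and 77.6) among the highest. Over the 17 receptor and channel families, the highest gene held at least 50% of the sum in 9. These include the GABA-B receptor, where the higher of 2 genes must hold at least 50%. They also include the AMPA receptor without Gria1 and the dopamine receptors, whose genes were all near 1 FPKM or below.

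**Figure D4:**
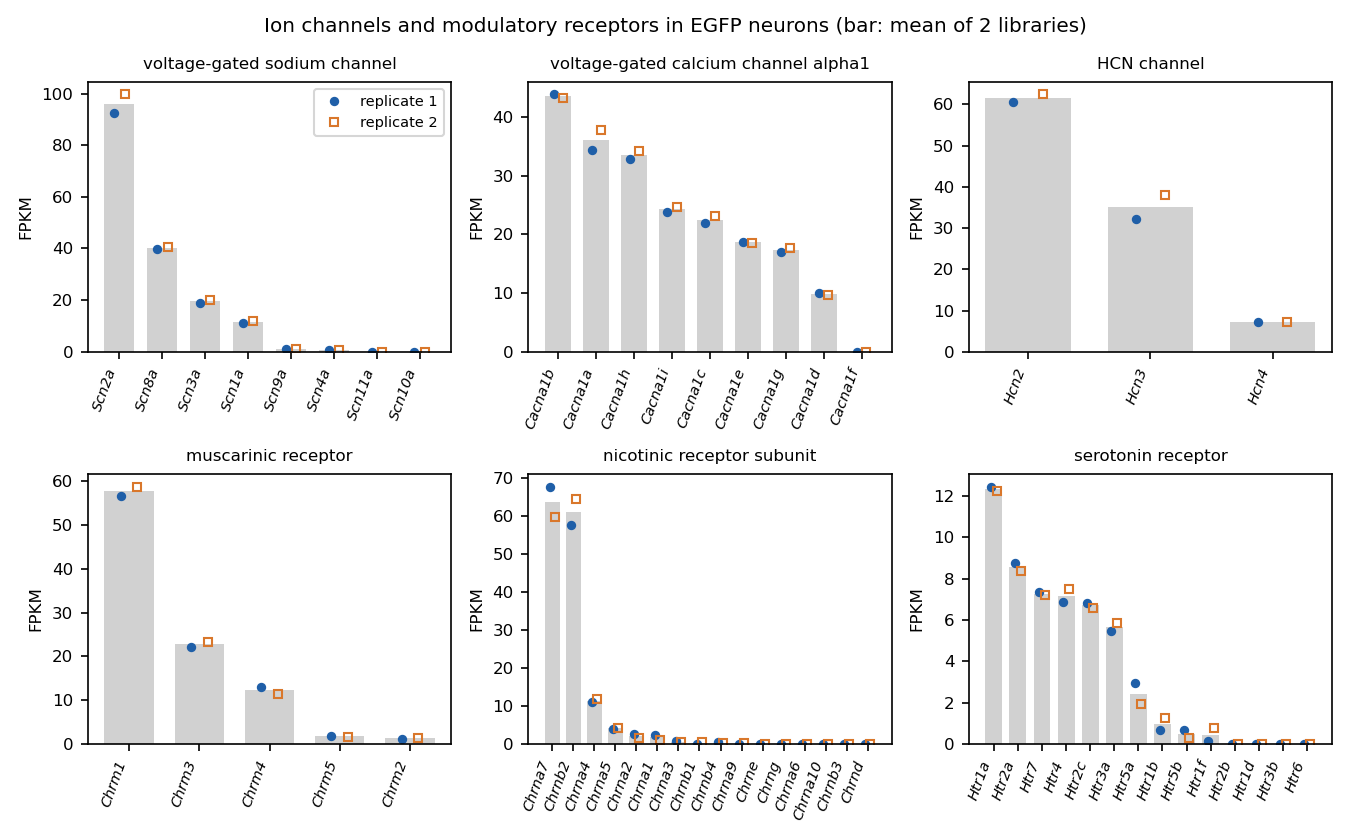
FPKM (linear vertical axes, each panel with its own range) of the voltage-gated channel genes and the muscarinic, nicotinic and serotonin receptor genes reported here, ordered by mean; grey bars are the mean of the 2 EGFP libraries, filled circles replicate 1 and open squares replicate 2. Scn2a holds 56.8% and Chrm1 60.2% of their families, while Chrna7 and Chrnb2 overlap and calcium channel genes descend gradually from 43.5.

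The machinery on both sides of the synapse was present at high levels. Of 20 genes of synaptic vesicles and release, 19 had at least 10 FPKM in both libraries and the median was 305. After Syp the highest were Syt1, the calcium sensor of release (627 and 670), the complexin gene Cplx2 (635 and 625), Rab3a (584 and 541) and Vamp2 (568 and 540), which overlapped in part. Unc13a, which primes vesicles, was listed at 0 in both libraries. Of the postsynaptic scaffolds, all 14 measured had at least 1, and Dlg4, the gene of PSD-95, led with 317 and 302. Its relative Dlg1 (SAP97) had 8.61 and 8.85, which made Dlg4 36.8-fold and 34.1-fold higher. The Shank genes, which code deeper scaffolds of the postsynaptic density, had 82.2 and 85.2 (Shank1), 46.3 and 46.3 (Shank3) and 37.8 and 35.8 (Shank2).

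Kinases of synaptic plasticity were all at 10 or more (12 of 12), with a median of 93.2 FPKM. Camk2b had 433 and 441 and Camk2a, which prevails in the adult forebrain, 376 and 405, a ratio of 1.12 ± 0.0424 (SD, n = 2). Camk2g and Camk2d were lower, with 47.4 and 48.9 and 13.4 and 11.2. Ccny, the gene of Cyclin Y that the series manipulates in its other groups, had 43.1 and 42.3. Cdk14, which the authors name as the kinase with which Cyclin Y was first found to interact, had 45.05 and 39.5. Cdk16, another kinase partner of Cyclin Y, had 151 and 146, 3.48-fold more than Ccny on average. The related Cdk17 had 33.0 and 32.7 and Cdk18 1.29 and 1.66. Cdk5 and its activator gene Cdk5r1 had 101 and 91.7 and 170 and 163.

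Genes switched on by synaptic activity were measurable in these cultures. Of 16 immediate early genes, 15 had at least 1 FPKM in both libraries, 12 had at least 10 and none had 100. Nr4a3 was the highest with 84.4 and 84.8, followed by Jund (58.4 and 52.7), Jun (51.1 and 52.3), Junb (32.8 and 35.8) and Arc (28.99 and 28.5). Fos had 22.9 and 22.5, Egr1 24.8 and 26.3 and the neuron-specific Npas4 11.3 and 13.6. Bdnf was listed at 0 in both libraries, while its receptor gene Ntrk2 had 79.4 and 81.5 and Ntrk3, the receptor of neurotrophin 3, had 56.0 and 56.9. Ntf3 itself had 13.8 and 12.7, and the low-affinity neurotrophin receptor gene Ngfr had 1.58 and 1.501.

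Peptides and proteins of dense-core granules formed another high group. In a list of 16 such genes, which also held Nnat, 13 had at least 1 FPKM in both libraries and 8 had at least 100. Vgf, a granule protein precursor, had 510 and 536, Scg2 (secretogranin II) 373 and 401, Chgb 315 and 330 and Chga 143 and 158. The peptides Tac1 (23.0 and 26.3) and Penk (17.95 and 18.9) were lower, Crh had 1.33 and 1.53, Cartpt 1.30 and 2.37, Gal 0.995 and 0.303 and Pdyn 0.446 and 1.02, and Adcyap1 was listed at 0. Sst, Vgf and Scg2 share the cAMP response element TGACGTCA near their start, an 8-base palindrome known as a site of CREB, which reads the same on both strands. It was searched in 300-base RefSeq promoters (250 bases before to 50 after the start, build GRCr8). The motif occurred in 1.83% of all 33469 promoters, and in 338 (2.56%) of the 13180 promoters matched to a measured gene, whatever its level. Among the 897 matched promoters of genes with a mean of 100 or more FPKM, 43 (4.79%) held it. No match was recorded for Nnat, Npy, Chgb, Cck or Chga, which are high genes of the same list, though not every gene had a promoter to search. The 3 stretches of 100 bases are shown because they belong to high granule genes, with the motif in capitals. A match is a description of the letters and not evidence that the site was used.
Sst (chr11:90461461-90461560, plus strand): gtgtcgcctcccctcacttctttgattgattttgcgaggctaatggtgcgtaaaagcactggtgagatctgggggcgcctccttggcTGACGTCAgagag
Scg2 (chr9:88256907-88257006, minus strand): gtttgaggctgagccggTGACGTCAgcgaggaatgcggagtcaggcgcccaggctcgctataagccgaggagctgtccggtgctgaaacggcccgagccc
Vgf (chr12:25277031-25277130, minus strand): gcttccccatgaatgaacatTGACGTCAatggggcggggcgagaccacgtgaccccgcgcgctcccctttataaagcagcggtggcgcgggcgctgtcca

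In Sst the motif began at base 3 of the annotated transcript, in Vgf 90 and in Scg2 123 bases before the start. It also occurred in the promoters of Meg3, Hsp90ab1, Tubb2a, Cox8a, Ldha and Syn1, which were high, and in those of Cartpt (mean 1.83 FPKM) and Flt1 (mean 0.923), which were not.

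Imprinted genes, expressed from the chromosome of a single parent, ranged from very high to very low. Of 16, 10 had at least 1 FPKM in both libraries and 4 had at least 100, namely Nnat, Meg3, Ndn (278 and 297) and Peg3 (147 and 154). Grb10 (32.9 and 34.2), Igf2r (26.4 and 26.3) and Ube3a (24.7 and 24.4) were intermediate. Dlk1, which neighbours Meg3, had 0.423 and 0.129, Igf2 0.302 and 0.138, Cdkn1c 0.414 and 0.262 and H19 0 and 0.215. Calmodulin genes were among the highest of all, with 1348 and 1268 for Calm3 and 903 and 838 for Calm2, and the calcium sensor genes Hpca (303 and 275), Ncald (293 and 266) and Vsnl1 (274 and 264) followed.

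Families of genes with a role in other tissues, grouped by symbol after values had been seen, were mostly listed at 0. Of 1197 olfactory receptor genes, 1138 (95.1%) were at 0 in both libraries and none had 1 FPKM in both; the highest, Olr337, had 1.096 and 0.802. Of 179 vomeronasal receptor genes, 163 were at 0 in both. Of 43 keratin genes 28 were at 0 and only Krt2 (5.28 and 7.06) reached 1 in both. In contrast, 45 of 50 protocadherin genes, which code adhesion proteins of neurons, had at least 1, led by Pcdh8 (129 and 131), as had 162 of 178 zinc finger protein genes, led by Zfp238 (186 and 171), and 46 of 54 Rab genes.

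The 2 libraries agreed closely for all but weakly expressed genes. Over the 9808 genes with at least 1 FPKM in both, Pearson's r of the log2 values was 0.994 and Spearman's rho 0.995; these are correlations across genes, which are not independent replicates. For the 8056 genes with a mean of at least 5, the robust SD of log2(replicate 2 / replicate 1) was 0.131, corresponding to 1.095-fold, around a median of -0.0024 on the log2 scale. Of these genes 82 (1.02%) differed by at least 1.5-fold, 42 of them higher in replicate 2 and 40 higher in replicate 1, and 17 differed by at least 2-fold. Among the members of the gene lists, 3 genes passed 1.5-fold at this level. They were Rpl37a (1 of 78 ribosomal protein genes with a mean of at least 5), Adrb1 (1 of 2 adrenergic receptor genes) and Tmsb4x (1 of 21 cytoskeletal genes). Tmsb4x, an actin-binding peptide gene, had 25.7 and 39.2. The count over the lists was not compared with the share over all genes. The robust SD fell steadily with level, from 0.841 at a mean of 0.3 to 1 through 0.449 at 1 to 3 and 0.245 at 3 to 10 to 0.0794 at 300 and above. The share of genes past 1.5-fold was 48.4%, 24.8% and 5.28% in the 3 lowest of these classes, below 1% in every class from 10 upward, and 0% of 327 genes in the highest. A 1.5-fold difference between replicates was thus common near an FPKM of 1, where the dopamine receptor genes and Pvalb lie, and rare above 10, where all 20 pan-neuronal genes lie.

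The widest gaps between libraries came from genes listed at or near 0 in a library and high in the other. Mir23b, listed at 0 in replicate 1, had 517 FPKM in replicate 2, whereas Mir2985 and Mir1249 had 217 and 103 in replicate 1 and were listed at 0 in replicate 2. They were the only 3 of 438 microRNA genes not at 0 in both libraries. Pemt had 0 and 17.8, LOC100911576 58.8 and 0.0174, LOC498750 12.7 and 0.00149 and Rpl37a 24.5 and 0.00734. The low values of the last 3 genes were above 0 but at most 0.0174. Among genes with a measured level in both libraries, RGD1562608 (2.43 and 8.82), the proteasome chaperone gene Psmd10 (33.9 and 9.95) and Agps (11.1 and 4.33) differed most. In total, 1030 genes were listed at 0 in exactly 1 of the libraries, with a median of 0.146 in the other, and 39 of them had at least 1 there.

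The 3 microRNA genes are shown with their RefSeq hairpins (build GRCr8), with the mature arms in capitals, because their length sets them apart from other genes in a value given per kilobase. The hairpins of 369 of the 438 microRNA genes were matched, with a median length of 88 bases and a range of 59 to 141. A fragment counted on so short a gene gives a high FPKM, and the poly-T selection used here is not made for microRNAs, so these values are given as listed and not as levels of the mature microRNAs. The part of gene length in the gaps between libraries was not tested.
Mir23b (chr17:1819386-1819482, minus strand): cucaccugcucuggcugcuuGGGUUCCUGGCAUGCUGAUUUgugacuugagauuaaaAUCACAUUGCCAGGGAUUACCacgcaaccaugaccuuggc
Mir2985 (chr2:168254500-168254609, minus strand): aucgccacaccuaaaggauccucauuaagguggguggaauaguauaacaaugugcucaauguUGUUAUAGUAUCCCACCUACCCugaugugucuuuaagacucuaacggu
Mir1249 (chr7:117955517-117955636, minus strand): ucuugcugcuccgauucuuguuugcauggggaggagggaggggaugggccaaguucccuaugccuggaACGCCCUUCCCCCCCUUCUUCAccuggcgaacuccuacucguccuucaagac

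**Figure D5:**
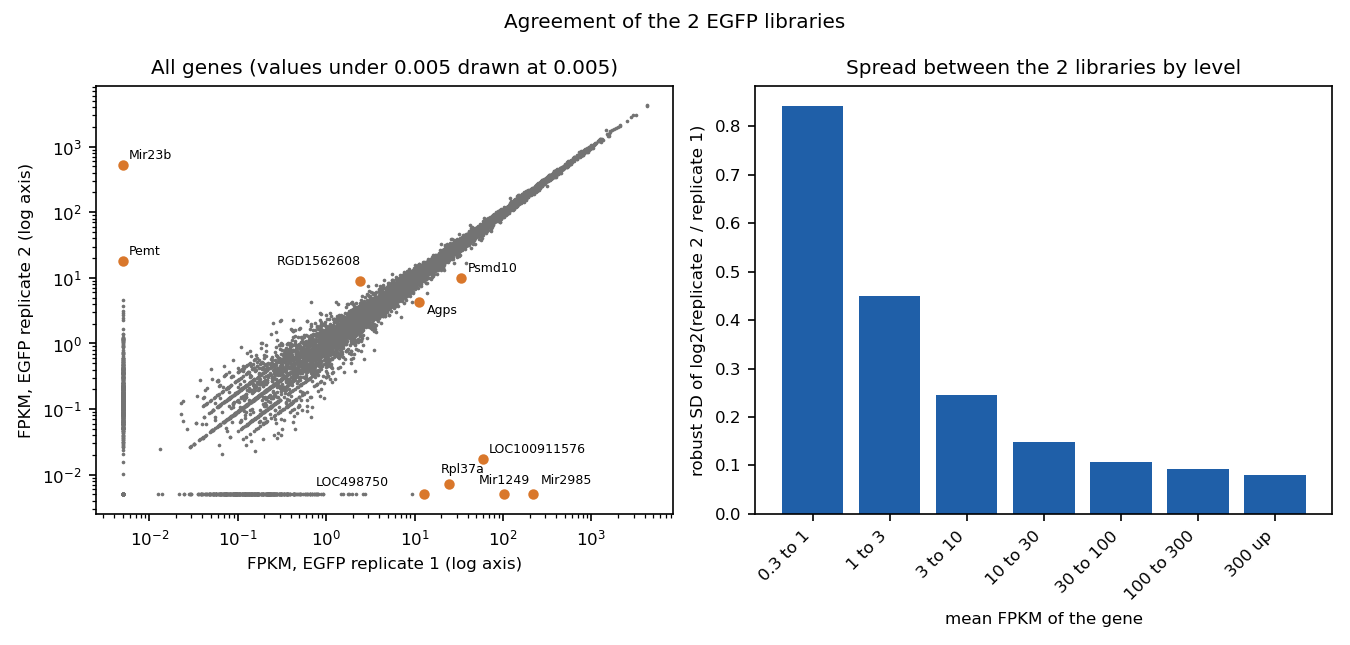
Left, FPKM of every gene in EGFP replicate 2 against replicate 1 (both log axes, values under 0.005 drawn at 0.005), with the 10 genes that differ most at a mean of at least 5 in orange. Right, robust SD of log2(replicate 2 / replicate 1) for genes grouped by mean FPKM, which falls from 0.841 to 0.0794.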

How the data were processed

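RNA-seq was measured in the 2 EGFP libraries described above. Per the labels, libraries were made with a TruSeq stranded mRNA kit from poly-T-selected RNA. The authors sequenced paired-end reads, mapped them to the rat build rn4 with TopHat2 and computed gene levels with Cufflinks, and the submitters' processing notes name TopHat2 2.0, Bowtie2 2.1.0, SAMtools 0.1.19, Cufflinks 2.2.1 and R 3.1.0. The annotation, any scaling between libraries and the use of strand in counting are not given in the sources used here, so reads of overlapping or antisense genes may not be told apart. The deposited values are FPKM per gene symbol. FPKM divides by transcript length and by library total, so very short genes are given large and unsteady values, and reads shared by near-identical genes are divided by estimation. The 4 sample columns of the other groups were not used.

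The values were taken as deposited, with no offset or filter unless stated. Levels are given per library, or as mean ± SD (n = 2). With 1 group of 2 libraries there is no comparison between conditions and no test or p-value was computed. The robust SD is 1.4826 times the median absolute deviation of log2(replicate 2 / replicate 1) over genes with a mean FPKM of at least 5. The ratio of the library divisors was found from the steps between FPKM values. Of 669 genes with a highest value under 0.3, 92.8% fitted whole fragments within 0.005 on the log2 scale, against a median of 0.299% after shifts. In simulated data, 4 of 4 settings were recovered to within 1%. RefSeq (used for names) held 16656 of the symbols, 14569 as current and 2087 as older names, and lacked 410. Promoters and hairpins were taken from RefSeq (GRCr8) and the first listed promoter of a gene was used. Promoters were matched to 81.3% of genes with a mean of at least 1 but to 77.2% of all genes. A difference in motif share between levels was therefore not tested. Python 3.11.15, pandas 2.3.3, numpy 2.4.6, scipy 1.17.1 and matplotlib 3.10.9 were used.

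The members and the 51 gene lists were chosen with earlier results of these data known. Named genes were the 30 of highest mean FPKM, the members of receptor and channel families, the highest, the defining and the 0-listed members of other lists, the 10 genes with the largest log2 ratio between libraries at a mean of at least 5, and Ccny with its partners. List members named beyond this rule, the gene families found by symbol and the motif were chosen after values were seen. Of 663 listed genes, 634 were measured and 29, such as Gria1, Homer1, Glul and Aldh1l1, were not analysed here. Values of some measured genes are not reported here or drawn, but they count in the sums, shares and counts. Alternatives covered thresholds, offsets, filters, denominators, list summaries and each library alone.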

Additional observations from a re-analysis of the deposited data

How the results depend on the processing

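All values rest on 2 libraries, whose origin from separate cultures is not stated, and the depth behind them is unknown, so an FPKM near 1 is imprecise. No paired analysis was possible because there is 1 group and no result comes from a test. The spread between libraries, 0.131 as reported, was 0.125 with 1 added to each FPKM, 0.153 for genes with a mean of at least 1 and 0.153 with values floored to 1 and no filter. The count of genes 1.5-fold or more apart, 82 as reported, was 52, 434 and 407 in the same order, and 17 at 2-fold. When the 10 highest genes were left out of both the sets and the sum, the rest of the 100 highest genes held 17.2%. The ribosomal protein genes, then without Rplp1 and Rpl41, held 7.20%. The full set of ribosomal protein genes held 7.57% of the sum over genes with at least 1. The ratio of pan-neuronal to astrocyte genes, 7.01 as reported, was 12.1 from geometric means with values floored to 1 and 9.98 without the highest member of each list. The ratio of glutamatergic to GABAergic genes, 2.61 as reported, was 4.85 for Slc17a7 over Gad1 alone. The cause of these shifts was not tested beyond the change of genes or scale that each alternative makes. With each library alone, the count of genes at 1 or more was 9974 to 10002, the share of the 100 highest 21.4% to 21.5%, the ribosomal share 7.56% to 7.57%, the 2 ratios 6.76 to 7.27 and 2.56 to 2.67, and the families led by a gene with at least 50% 9 to 10. The highest gene of a family was kept in 34 of 34 comparisons with 1 added or with values under 1 set to 0, but with 1 added 73 of 112 subunit shares moved by more than their SD, most in the dopamine receptors, where the share of Drd1 went from 65.1% to 33.1%, and to 100% with values under 1 set to 0. In replicate 2 alone, Grm7 stood above Grm5 and Chrnb2 above Chrna7.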
